A study of Mus musculus with 6 samples.

Results

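Open chromatin was followed at 7 genes that carry lactate out of the cell or set its pH, namely Slc16a3, Slc16a1, Bsg, Car9, Car12, Slc4a4 and Slc4a7. The genes were chosen by their function with earlier results of the same data known, and their regions were selected on peak calls, whose presence, fold and pileup are then followed. Their peaks were those lying in the gene body or within 20000 bp of it (GENCODE M21 annotation, mm10 build), which gave 28 regions of the 52358 regions found when the peaks of all 6 libraries were merged. A region entered only because it was called in at least 1 library, so the presence and heights given here are descriptions of the chosen regions. Of the 28 regions, 24 belonged to the 41308 consensus peaks, in which the libraries of at least 1 oxygen level overlapped by more than 200 bp. In 13 of those 24 regions, as in 28432 of all consensus peaks, a peak was found in each of the 6 libraries, and only these could be ranked and compared across every library.

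The cells were GL261, a mouse glioma line grown in culture, stably expressing the green fluorescent protein plasmid pEGFP-N1 in all groups. They were held for 16 h at 1% O2 (moderate hypoxia) or <0.1% O2 (severe hypoxia) or kept at 21% O2 (normoxia), and fixed with formaldehyde before lysis and ATACseq, an assay in which the Tn5 transposase cuts and tags accessible DNA. Each oxygen level had 2 libraries, labelled as replicates. Nothing in the labels says that these came from separate cultures, so the spread between them may be technical. The question was which of these genes gained or lost accessible chromatin at either level of hypoxia.

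The libraries differed in depth. They held between 33006 and 43554 peaks. Mean genome coverage was taken as the lowest background recovered from the fold and p-values of each list. It was 2.16 and 2.36 at 21% O2 and between 2.93 and 3.35 under hypoxia. The median summit pileup, the number of fragments stacked at the top of a peak, was 61 and 80 over the shared peaks at 21% O2, 108 and 98 at 1% O2, then 99 and 82 at <0.1% O2. Raw pileups therefore cannot be set against each other directly, and 3 relative values are used here. The fold rank is the percentile rank, among the 28432 ranked peaks of the same library, of the fold over local background written by the peak caller. The pileup rank is the same for the summit pileup, and the relative pileup is the summit pileup divided by the library's median over those shared peaks. A peak was called higher or lower when both libraries of one oxygen level lay beyond both of the other and their mean ranks were 10 or more percentile points apart. With 2 libraries against 2, the smallest two-sided p an exact permutation test can give is 0.33, so no single peak is given a p. As a check of the labelled cell type, all 8 glioma and neural stem-like marker genes held a promoter peak, against 3 of the 10 markers of other cell types (Syp, Pecam1 and Mbp).

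Cells that rely on glycolysis export lactate together with a proton through monocarboxylate transporters. Slc16a3 encodes MCT4, the exporter suited to high lactate, and Slc16a1 encodes MCT1, which moves lactate in either direction. Bsg encodes basigin, the chaperone that brings both to the plasma membrane. Car9 and Car12 encode carbonic anhydrases whose catalytic sites face outward and convert carbon dioxide and water to bicarbonate and a proton, and Slc4a4 and Slc4a7 encode sodium bicarbonate cotransporters that bring bicarbonate into the cell. SLC16A3 and CA9 are textbook targets of the hypoxia-inducible factors, which bind a short core, RCGTG, that is ACGTG or GCGTG.

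DNA from some of these loci is shown first. Not all of it lies under a peak that changed, and other called peaks are not shown. All sequences are from the GRCm38.p6 (mm10) genome, plus strand, 5′ to 3′. Windows of 201 bp are centred on the highest summit of a peak, and the upstream sequence of Slc16a3 is from RefSeq. Capitals mark the hypoxia core ACGTG or GCGTG on either strand (CACGT or CACGC on the plus strand when the core lies on the minus strand) or the AP-1 letters TGANTCA, which read the same on both strands apart from the middle base. AP-1 is the Fos and Jun family of factors, and its letters were searched after the peaks had been seen. Touching or overlapping cores count as 1 stretch.

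The first pair comes from Slc16a3, at chr11:120948817-120949066 directly upstream of the RefSeq start and at chr11:120950904-120951104 in an intron, and the intronic window is shown because it lies at the summit of the peak that changed most among the 13 ranked peaks.
Slc16a3 upstream: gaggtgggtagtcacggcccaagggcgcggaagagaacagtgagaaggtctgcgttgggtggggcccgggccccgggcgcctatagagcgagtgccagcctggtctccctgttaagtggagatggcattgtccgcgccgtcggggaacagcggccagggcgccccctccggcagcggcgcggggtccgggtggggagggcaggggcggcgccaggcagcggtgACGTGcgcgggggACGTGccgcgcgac
Slc16a3 intron: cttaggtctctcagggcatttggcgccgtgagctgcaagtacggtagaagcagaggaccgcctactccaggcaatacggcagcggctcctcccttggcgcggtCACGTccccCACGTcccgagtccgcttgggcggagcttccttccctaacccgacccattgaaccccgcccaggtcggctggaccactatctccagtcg

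The second set holds the peaks that were not called at 21% O2 and whose windows hold AP-1 letters, which is why they are shown: one intergenic, upstream of Slc16a3, at chr11:120938861-120939061, and a pair in introns of Slc4a4 at chr5:88969042-88969242 and chr5:88983310-88983510.
Slc16a3 distal: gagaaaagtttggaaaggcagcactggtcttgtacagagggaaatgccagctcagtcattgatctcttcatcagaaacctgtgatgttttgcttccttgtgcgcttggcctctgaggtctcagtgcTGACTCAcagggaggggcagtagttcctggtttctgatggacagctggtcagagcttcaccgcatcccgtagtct
Slc4a4 intron a: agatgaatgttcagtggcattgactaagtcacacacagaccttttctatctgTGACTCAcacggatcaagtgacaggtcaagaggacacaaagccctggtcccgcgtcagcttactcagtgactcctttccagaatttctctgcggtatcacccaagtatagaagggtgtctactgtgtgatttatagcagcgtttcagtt
Slc4a4 intron b: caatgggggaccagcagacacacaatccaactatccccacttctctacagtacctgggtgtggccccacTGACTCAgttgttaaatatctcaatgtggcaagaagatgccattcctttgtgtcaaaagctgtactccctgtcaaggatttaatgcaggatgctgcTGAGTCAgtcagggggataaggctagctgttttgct

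The last is the Bsg promoter at chr10:79704272-79704472, shown because it is the tallest of the 28 peaks in each library and its window holds the most stretches of the core.
Bsg promoter: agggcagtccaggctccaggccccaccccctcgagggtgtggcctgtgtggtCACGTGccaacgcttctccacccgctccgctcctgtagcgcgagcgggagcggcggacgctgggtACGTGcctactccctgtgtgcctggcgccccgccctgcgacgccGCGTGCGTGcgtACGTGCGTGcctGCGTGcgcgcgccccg

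The other gained peaks, Car9 +23.9 kb, Car12 −7.9 kb, Slc4a4 +99.1 kb and Slc4a4 +157.3 kb, each named by its distance from the gene's first start site, held neither AP-1 letters nor the hypoxia core in their windows. Over the 28 summit windows, 11 held the hypoxia core and 4 held AP-1 letters. Among the 24 that are consensus peaks the counts were 9 and 4, while 32.6% of the windows of all 41308 consensus peaks held the core and 22.4% held AP-1 letters. The core stood in 9 of the 14 windows at promoters and in 2 of the 14 away from them, and AP-1 letters in 1 and 3. The same split over all consensus peaks was not taken, so it is no result about these genes. RefSeq's 300-bp promoters run from 250 bp before to just after the start. Their 7 entries for these genes include 2 for Slc4a4 and none for Bsg. Of the 7 entries, 4 held the core (Slc16a1, Slc16a3, Car9 and 1 of Slc4a4), against 43.8% of all 32851 entries. The Car12 and Slc4a7 entries held none, though the summit windows of both genes' promoter peaks held it. The Slc4a7 entry, at chr14:14718534-14718833, lay outside that gene's promoter peak. A match is a string of letters and does not show a bound factor.

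**Figure D1:**
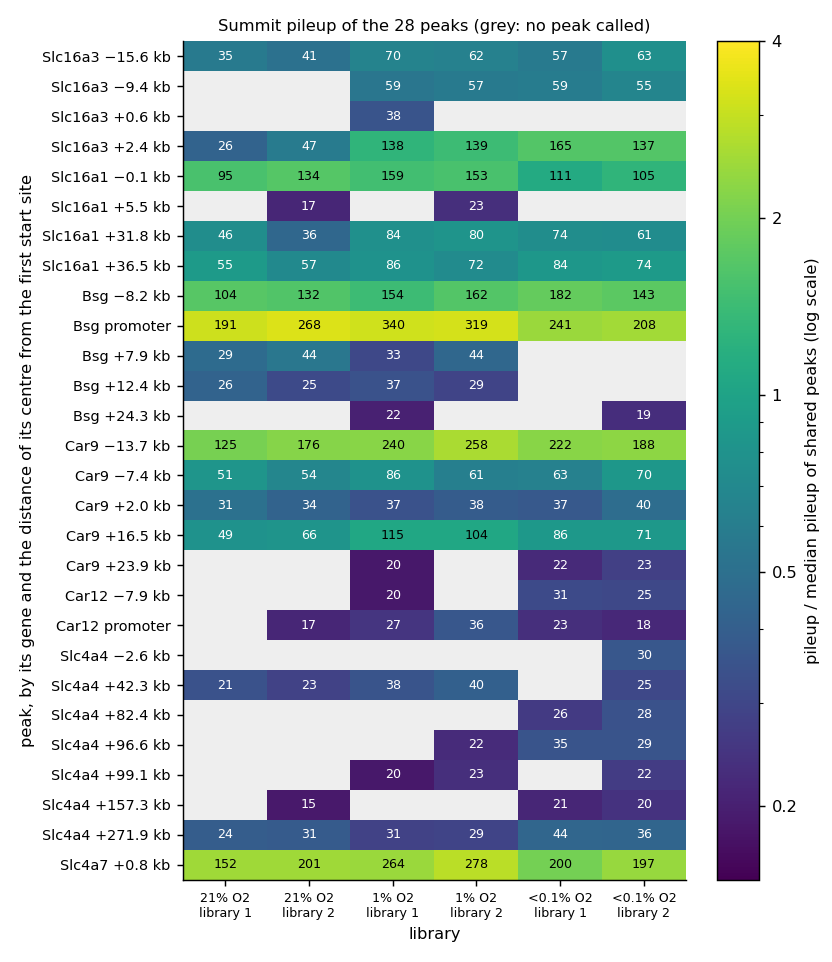
Summit pileup (fragments, printed in each cell) of the 28 peaks in the 6 libraries, coloured by the pileup relative to the library's median over shared peaks (log scale). Grey cells hold no called peak. The Slc16a3 +2.4 kb row goes from 26 and 47 at 21% O2 to between 137 and 165 under hypoxia, and the Slc16a3 −9.4 kb row is empty at 21% O2.

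Per library, 16 and 19 of the 28 regions held a peak at 21% O2, 23 and 21 at 1% O2, then 20 and 24 at <0.1% O2. The whole lists held 33006 and 36188 peaks at 21% O2, 42807 and 41783 at 1% O2, then 43554 and 39348 at <0.1% O2. They too were longer under hypoxia, so the rise is no result about these genes. By position, 7 lay at a promoter of the gene itself (within 2000 bp of an annotated start), 7 at a promoter of another gene, 6 deeper in the gene body and 8 between genes. Peaks are named below by the distance of their centre from the gene's first start site. The 20000-bp window was a choice, and it fell in a gap at each gene. The farthest regions inside it lay 15140 bp (Slc16a3), 15925 bp (Slc16a1), 16532 bp (Bsg), 17015 bp (Car9), 7663 bp (Car12) and 2499 bp (Slc4a4) from the gene. The nearest outside lay 23581, 22132, 21022, 27164, 28158 and 94725 bp away in the same order. Slc4a7 had only its promoter peak, and the nearest other region lay 63848 bp away.

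Across the 13 ranked peaks, few were called. By fold rank, 1 was called lower and 3 higher at 1% O2, 0 lower and 2 higher at <0.1% O2, and 0 lower and 3 higher when <0.1% was compared with 1% O2. In the same order, 18.5% and 16.6%, 19.9% and 19.3%, and 15.2% and 15.8% of all 28432 ranked peaks were called lower and higher. By pileup rank the counts were 0 lower and 3 higher, 1 and 1, and 2 and 0, where 17.0% and 16.4%, 21.5% and 20.7%, and 13.1% and 13.1% of all ranked peaks were called. These shares of 13 peaks are near the background, which leaves no result about the 7 genes as a group. At 1% O2 the fold ranks of the 13 peaks changed by a median of 4.25 points and at <0.1% O2 by 1.84 points, beside −0.64 and −0.18 over all ranked peaks. Within the group, 1 peak of Slc16a3 lay far from the other 12.

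**Figure D2:**
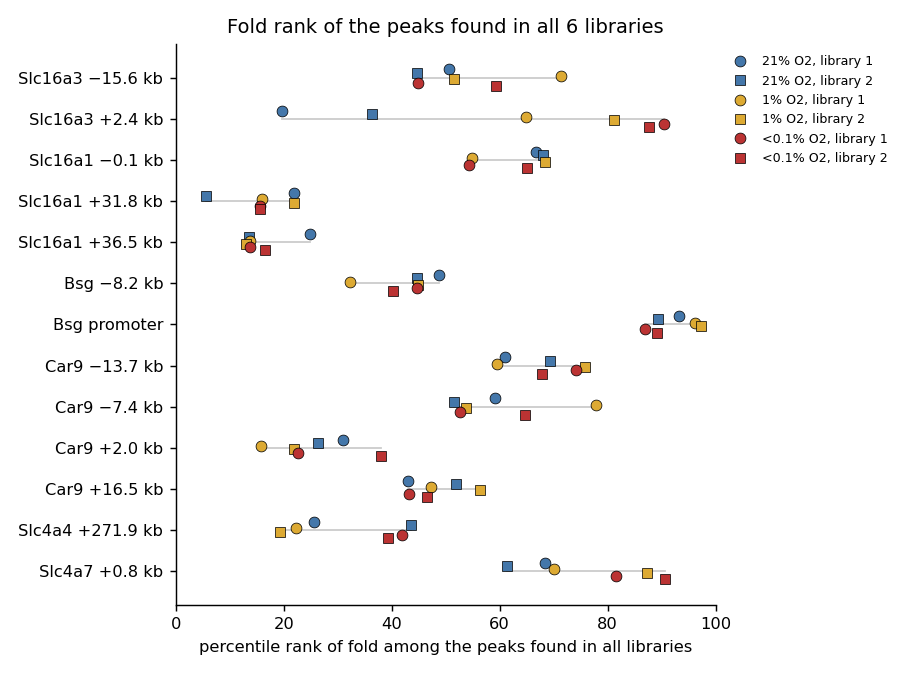
Fold rank (percentile among the 28432 peaks found in all libraries) of the 13 ranked peaks. Each point is 1 library, coloured by oxygen level, circles for library 1 and squares for library 2, and grey lines span the range. At Slc16a3 +2.4 kb the normoxic libraries stand at 19.6 and 36.3 and the <0.1% O2 libraries at 90.5 and 87.6.

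The largest change among the 13 ranked peaks was at Slc16a3, the MCT4 gene (chr11:120948480-120960868, plus strand). Its +2.4 kb peak (chr11:120950660-120951196) lay in an intron, its near edge 1579 bp from the nearest start site of the basic annotation, and covered the starts of 2 further transcripts of the comprehensive annotation. The summit pileup there was 26 and 47 fragments at 21% O2, 138 and 139 at 1% O2, then 165 and 137 at <0.1% O2. The groups did not overlap, with the lowest hypoxic library well above the highest normoxic one. Relative to the shared peaks, the height was 0.507 ± 0.114 (SD, n = 2) at 21% O2, 1.35 ± 0.0994 at 1% O2 and 1.67 ± 0.00287 at <0.1% O2. These means stood in ratios of 2.66 and 3.29 to normoxia, or 1.41 and 1.72 on the log2 scale. In normoxia the peak was thus below the typical shared peak, and under both hypoxia levels above it.

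The fold ranks of the Slc16a3 +2.4 kb peak were 19.6 and 36.3 at 21% O2, 64.9 and 81.3 at 1% O2, then 90.5 and 87.6 at <0.1% O2. Its mean rank moved by 45.1 points at 1% O2 and by 61.1 points at <0.1% O2, and both were called higher. Over all ranked peaks, the changes at <0.1% O2 ran from −25.5 points at the fifth percentile to 26.6 points at the matching upper percentile. Pileup ranks gave the same calls, with changes of 43.3 and 52.5 points, so the calls against normoxia did not depend on the background term. The local background itself was 3.28 and 4.47 fragments at 21% O2 and between 8.41 and 9.79 under hypoxia. Between the hypoxia levels the step was smaller. The fold rank was 16.0 points higher at <0.1% than at 1% O2 and was called, but the pileup rank was 9.21 points higher and was not, and without library 1 of 1% O2 the fold rank step was 7.81 points and no longer called.

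Both cores of the intronic window lay beside the summit. They began 3 and 12 bp downstream of the window's centre at chr11:120951007-120951011 and chr11:120951016-120951020. The summits of the 4 hypoxic libraries fell at positions 120951009, 120951021, 120951004 and 120951007, all within 17 bp of the centre. In normoxia library 2 had its summit at 120950998 and library 1 at 120950882. Thus 5 of the 6 summits lay close to the paired cores, and the summit of the lowest peak, in library 1 of 21% O2, lay 122 bp upstream of the window's centre. The centre is itself the summit of library 1 of <0.1% O2. Cores also began 2 and 9 bp upstream of the window's centre at Car9 −13.7 kb, a peak without a call.

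**Figure D3:**
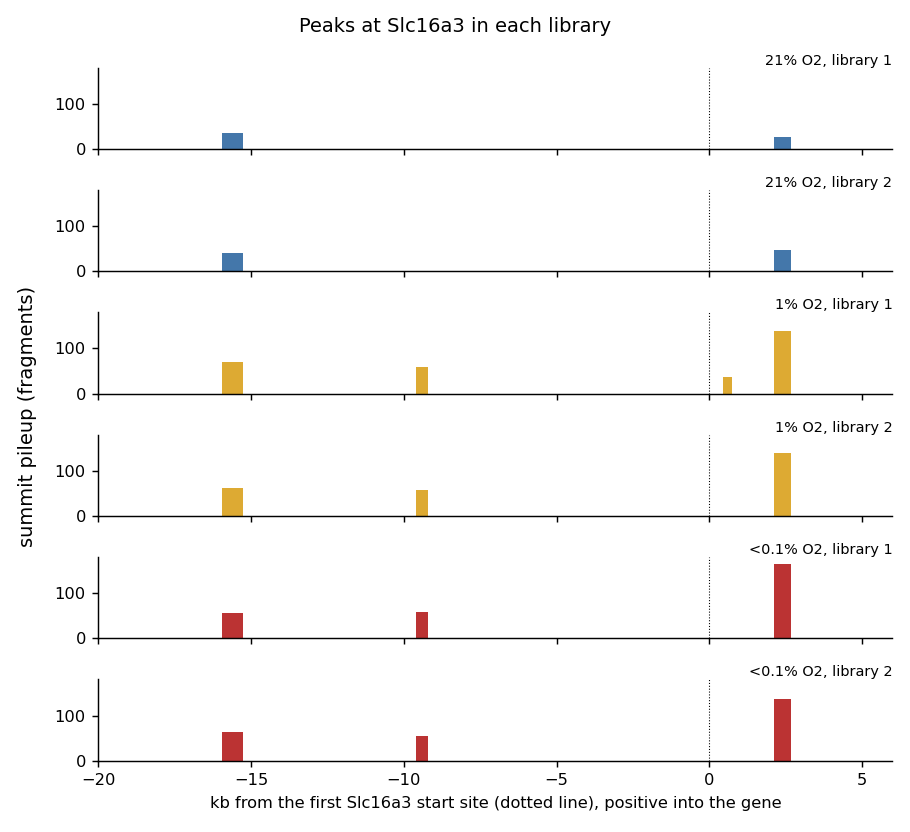
Summit pileup (fragments, vertical axis) of the peaks at Slc16a3 in each of the 6 libraries, by distance in kb from the first start site (dotted line). The −9.4 kb peak is present in the 4 hypoxic libraries and in neither normoxic one, and the +2.4 kb peak is tallest in the hypoxic libraries.

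Upstream of Slc16a3, the intergenic −9.4 kb peak (chr11:120938862-120939262) was the clearest change of presence. No peak was called in either library at 21% O2, while the pileup was 59 and 57 fragments at 1% O2, then 59 and 55 at <0.1% O2. At the same height relative to the shared peaks, the normoxic libraries would have shown 36.5 and 47.9 fragments, and 14 and 15 would have been enough for a call. Matched heights of this kind, here and below, are means over only those libraries in which the peak was called. They may run high for that reason, and the part of depth in a missing peak was not tested. The numbers needed for a call, here and below, rest on a background scaled by coverage from the libraries with the peak. The background was not measured in a library where the peak is missing. The peak was also gained at both hypoxia levels when each list was cut to its 33006 best peaks. It held AP-1 letters (TGACTCA) 26 bp from the window's centre and no hypoxia core.

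Over the annotated starts of Slc16a3 little was called. The +0.6 kb region at the start, which holds the paired core of the upstream sequence, was a peak in library 1 of 1% O2 only, with 38 fragments. Its GC content was 74.8%, and the nearby background was high. For the other libraries, 21.5 to 34.8 fragments would have matched that relative height and 21 to 27 were needed for a call. At −15.6 kb lay the promoter of Ccdc57, with pileups of 35 and 41, then 70 and 62, then 57 and 63. By fold rank that peak was called higher at 1% O2 with a change of 13.8 points, while its pileup rank moved by 5.05 points with no call, and without library 1 of 1% O2 the fold rank moved by 3.89 points and was not called. Within this locus the intronic peak was called higher at both hypoxia levels by both ranks, the distal peak was found in the hypoxic libraries alone, and the neighbouring promoter was called by a single rank at a single level.

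Slc16a1, the MCT1 gene (chr3:104638668-104658462, plus strand), had an open promoter at all oxygen levels. The pileup of its −0.1 kb promoter peak (chr3:104637849-104639264) was 95 and 134 at 21% O2, 159 and 153 at 1% O2, then 111 and 105 at <0.1% O2. Relative heights were 1.62 ± 0.0832, 1.52 ± 0.0629 and 1.201 ± 0.113 (SD, n = 2). The severely hypoxic libraries were lowest. By pileup rank the change at <0.1% O2 was −11.4 points against 21% and −11.1 points against 1% O2, and both were called lower. By fold rank the changes were −7.72 and −2.03 points with no call, so the call rests on which value is ranked. It also rests on library 1 of <0.1% O2, without which the pileup rank changes were −8.22 and −7.96 points with no call, and against 1% O2 it was lost without library 2 of 1% O2 (−9.69 points). The other Slc16a1 peaks moved less or in a single measure. At +31.8 kb, at the promoter of Gm29560, the pileup was 46 and 36, 84 and 80, then 74 and 61, and only the pileup rank at 1% O2 was called, higher by 11.5 points, and by 1.94 points with no call without library 2 of 21% O2. At +36.5 kb it was 55 and 57, 86 and 72, then 84 and 74, with no call. A weak intronic peak at +5.5 kb, at the promoters of Gm43581 and Gm43585, had 17 and 23 fragments in 1 library each of 21% and 1% O2.

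Bsg, the basigin gene (chr10:79704491-79711969, plus strand), carried the tallest peak of the 28 in each library, over its start site (chr10:79704048-79704912). The pileup was 191 and 268 at 21% O2, 340 and 319 at 1% O2, then 241 and 208 at <0.1% O2. Relative heights were 3.24 ± 0.155, 3.20 ± 0.0756 and 2.49 ± 0.0723 (SD, n = 2), a ratio of 0.767 between <0.1% and 21% O2. The promoter was thus as high relative to shared peaks at 1% O2 as in normoxia, and lower at <0.1% O2. Fold ranks were 93.2 and 89.3, 96.1 and 97.3, and 86.9 and 89.1, a change of 5.49 points at 1% O2 and of −3.24 points at <0.1% O2. Neither reached the 10 points needed for a call, and pileup ranks did not either. The summit window held 5 stretches of the hypoxia core and was open at every oxygen level.

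Downstream of Bsg, a pair of weak peaks was missing at <0.1% O2. The +7.9 kb peak (chr10:79712172-79712688), 203 bp beyond the end of the gene, had 29 and 44 fragments at 21% O2 and 33 and 44 at 1% O2. The +12.4 kb peak, at the promoter of the ion channel gene Hcn2, had 26 and 25, then 37 and 29. Neither was called in either library at <0.1% O2. At the same relative height the +7.9 kb peak would have had 44.1 and 36.5 fragments there, with 26 and 25 needed for a call. For the +12.4 kb peak those heights were 34.1 and 28.2 with 26 and 25 needed, closer to the number needed. With a stricter −log10 q minimum of 5, the +12.4 kb peak was lost against 1% O2 but not against 21% O2, and the +7.9 kb peak was lost against both. With equal list lengths the +12.4 kb peak was lost in neither comparison, and the +7.9 kb peak was lost against 21% O2 but not against 1% O2. The intergenic −8.2 kb peak stayed in all libraries, with 104 and 132, 154 and 162, and 182 and 143 fragments and no call. A peak at +24.3 kb reached 22 and 19 fragments in 1 library of 1% and 1 of <0.1% O2.

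Car9, the carbonic anhydrase IX gene (chr4:43506966-43513729, plus strand), had no peak over its own start site in any library. Its single promoter peak was at +2.0 kb (chr4:43508537-43509383), its near edge 1571 bp into the gene, and also within reach of the start of Gm12454. The pileup there was 31 and 34 at 21% O2, 37 and 38 at 1% O2, then 37 and 40 at <0.1% O2. Relative to shared peaks the height was 0.467 ± 0.0588, 0.365 ± 0.0319 and 0.431 ± 0.0807 (SD, n = 2), so the height relative to shared peaks was not above normoxia in either mean. Fold ranks changed by −9.75 points at 1% O2 and by 1.74 points at <0.1% O2 with no call. Between the hypoxia levels the fold rank was called higher by 11.5 points at <0.1% O2, but the pileup rank moved by 3.64 points with no call, and without library 2 of <0.1% O2 the fold rank moved by 3.82 points.

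The remaining peaks near Car9 belonged mostly to its neighbours. The −13.7 kb peak at the promoters of Ccdc107 and Rmrp was tall, between 125 and 258 fragments, and had no call. The −7.4 kb peak at Arhgef39 ranged from 51 to 86 fragments, also with no call. The +16.5 kb peak at Tpm2 had 49 and 66, 115 and 104, and 86 and 71 fragments. Its pileup rank was called higher at 1% O2 by 12.2 points and lower by 10.4 points from 1% to <0.1% O2, with no call by fold rank. Farther out, an intergenic peak at +23.9 kb was gained at <0.1% O2 with 22 and 23 fragments, and was also found in library 1 of 1% O2 with 20. The same relative height would have given 14.0 and 18.3 fragments at 21% O2, where 11 were needed.

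Car12, the carbonic anhydrase XII gene (chr9:66713686-66766845, plus strand), had a weak promoter peak over its start (chr9:66713471-66713914). It was absent from library 1 of 21% O2, had 17 fragments in library 2, 27 and 36 at 1% O2, then 23 and 18 at <0.1% O2. The 1% O2 libraries were highest, but with 1 library missing it could not be ranked in all 6. An intergenic peak at −7.9 kb was gained at <0.1% O2 with 31 and 25 fragments and stood at 20 in library 1 of 1% O2. In normoxia 16.3 and 21.4 fragments would have matched its relative height, and 11 and 12 were needed. Neither this gain nor that at Car9 +23.9 kb was seen with equal list lengths.

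Slc4a4, the electrogenic sodium bicarbonate cotransporter gene (chr5:88886818-89239653, plus strand), had no peak at any of its own promoters. Its 7 peaks were 6 in introns and 1 upstream. Only the +271.9 kb peak (chr5:89158607-89158892) was present in all libraries, with 24 and 31 fragments at 21% O2, 31 and 29 at 1% O2, then 44 and 36 at <0.1% O2. Relative heights were 0.390 ± 0.00420, 0.291 ± 0.00628 and 0.442 ± 0.00383 (SD, n = 2). It was lowest at 1% O2 and highest at <0.1% O2. The fold rank was called lower at 1% O2 by 13.8 points, did not change enough for a call at <0.1% O2 (5.89 points), and was called higher by 19.7 points between them. The call at 1% O2 was lost when the GC trend was subtracted (−10.3 points, with overlapping groups), when ranked within the whole list (−6.75 points) and without library 2 of 21% O2 (−4.83 points). Pileup ranks moved the same way by −7.82, 1.34 and 9.16 points without a call.

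The other intronic Slc4a4 peaks came and went. At +82.4 kb (chr5:88969055-88969306) a peak was found in both libraries at <0.1% O2, with 26 and 28 fragments, and in none of the other 4. At +96.6 kb (chr5:88983232-88983504) it had 35 and 29 fragments at <0.1% O2 and 22 in library 2 of 1% O2. Both were gained against normoxia, where 18.4 and 24.2 fragments for the first and 18.9 and 24.8 for the second would have matched the relative height and 11 to 13 were needed. Both windows held AP-1 letters, 1 and 2 times, and no hypoxia core. With equal list lengths only the +96.6 kb gain was seen.

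At +99.1 kb a peak was found in both libraries at 1% O2 (20 and 23 fragments) and in library 2 of <0.1% O2 (22). At +157.3 kb it was found in both at <0.1% O2 (21 and 20) and in library 2 of 21% O2 (15), and was missing at 1% O2. The +42.3 kb peak had 21 and 23 fragments at 21% O2 and 38 and 40 at 1% O2, but at <0.1% O2 only library 2 had it, with 25. The −2.6 kb region was a peak in library 2 of <0.1% O2 alone, with 30. These 4 sites lay between 15 and 40 fragments where called. At the same relative height the −2.6 kb region would have had between 22.3 and 39.5 fragments in the libraries without it, with 11 to 14 needed for a call, and the +42.3 kb peak 33.6 fragments in library 1 of <0.1% O2, with 16 needed.

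Slc4a7, the electroneutral sodium bicarbonate cotransporter gene (chr14:14702279-14799940, plus strand), had a tall promoter peak at +0.8 kb (chr14:14702425-14703762) in all libraries. The pileup was 152 and 201 at 21% O2, 264 and 278 at 1% O2, then 200 and 197 at <0.1% O2. Relative heights were 2.50 ± 0.0146, 2.64 ± 0.277 and 2.21 ± 0.270 (SD, n = 2). By these values the promoter was about as open in hypoxia as in normoxia. Fold ranks behaved differently. They were 68.4 and 61.3, 70.1 and 87.3, and 81.5 and 90.6, which was called higher by 13.9 points at 1% O2 and by 21.2 points at <0.1% O2. Pileup ranks moved by 3.35 and −2.63 points, so at <0.1% O2 the direction turned with the value ranked. The local background in the denominator of the fold was 13.2 and 16.8 fragments at 21% O2, 18.4 and 16.6 at 1% O2, then 13.4 and 12.4 at <0.1% O2, and its part in the result was not tested. Without library 2 of 1% O2 the fold rank change at 1% O2 was 5.29 points and no longer called.

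**Figure D4:**
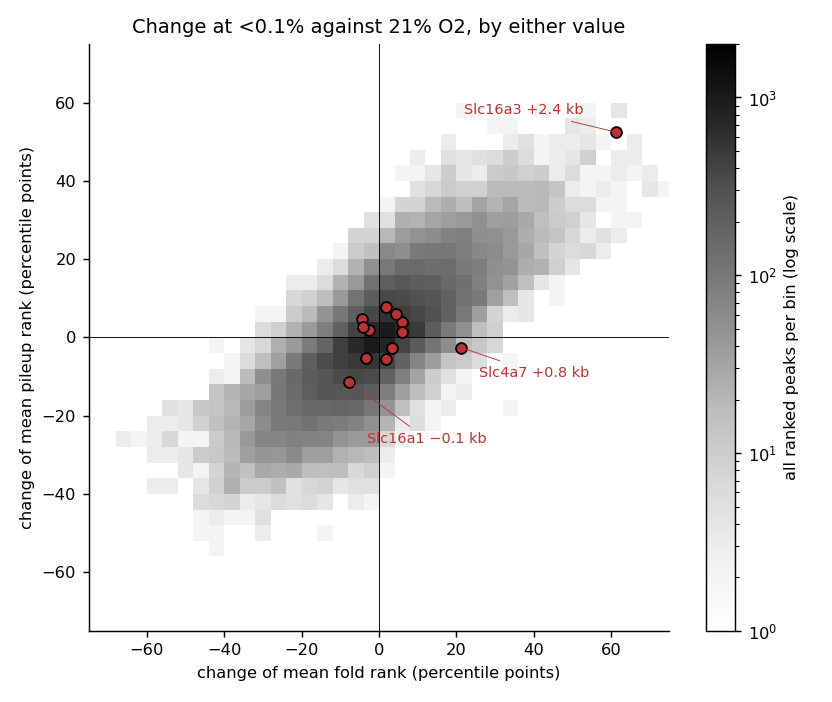
Change of mean fold rank (horizontal) and of mean pileup rank (vertical), both in percentile points, at <0.1% against 21% O2. Red points are the 13 ranked peaks, and the grey scale gives all 28432 ranked peaks per bin (log scale). Slc16a3 +2.4 kb stands at 61.1 and 52.5, while Slc4a7 +0.8 kb stands at 21.2 and −2.63.

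By presence, 2 of the 24 consensus peaks at these genes were gained at 1% O2 (Slc16a3 −9.4 kb and Slc4a4 +99.1 kb) and 0 were lost, where the shares of all 41308 consensus peaks were 10.6% and 1.01%. The <0.1% O2 libraries had 5 gained peaks (Slc16a3 −9.4 kb, Car9 +23.9 kb, Car12 −7.9 kb, and Slc4a4 +82.4 and +96.6 kb) and 2 lost (Bsg +7.9 and +12.4 kb), beside 10.1% and 1.52%. From 1% to <0.1% O2, 2 were gained (Slc4a4 +82.4 and +157.3 kb) and 2 lost (the same Bsg pair), beside 2.54% and 3.40%. No gained or lost site lay at a promoter of the 7 genes themselves. Gains outnumbered losses everywhere against normoxia, where the libraries were also the shallowest.

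The other genes of lactate and proton handling were read at their promoters, from lists of 57 genes chosen with earlier results known. A promoter peak was found for 39 of them, and for 35 it was ranked in all libraries. At 1% O2, 5 of the 35 were called lower by fold rank and 3 higher. At <0.1% O2 these counts were 11 and 2. Among 11623 protein-coding genes with a ranked promoter peak, 16.2% and 11.0% were called lower and higher at 1% O2, and 28.2% and 10.8% at <0.1% O2. By pileup rank, 2 were lower and 8 higher at 1% O2 (15.9% and 10.5% of coding genes), and 9 and 3 at <0.1% O2 (34.2% and 7.49%). The median fold rank change of the 35 was −0.20 points at 1% O2 and −3.93 points at <0.1% O2, close to the −1.03 and −3.11 points of all coding genes. Calls in the lower direction outnumbered those in the higher one at <0.1% O2 both in the lists and among all coding genes.

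Ldha, the gene of the lactate dehydrogenase subunit that favours making lactate from pyruvate, had a lower promoter rank at both hypoxia levels. Its fold ranks were 57.7 and 47.2 at 21% O2, 33.0 and 28.0 at 1% O2, then 19.4 and 29.7 at <0.1% O2, changes of −21.9 and −27.9 points, both called. By pileup rank the changes were −4.96 points, not called, and −14.5 points, called. Of the 6 ranked genes of lactate and pyruvate handling, 3 were called lower by fold rank at 1% O2, and 1 lower and 1 higher at <0.1% O2. Among all coding genes, 16.2% were called lower by fold rank at 1% O2, and 28.2% lower and 10.8% higher at <0.1% O2. For pileup rank the list had 1 lower and 1 higher at 1% O2, and 2 lower and 1 higher at <0.1% O2. The matching shares of all coding genes were 15.9% and 10.5%, then 34.2% and 7.49%. With only 6 genes these counts are no result about the list.

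Among other carbonic anhydrases, the promoter of Car13, a cytosolic enzyme, fell by 31.7 points at <0.1% O2, the largest called change in the lists, from fold ranks of 82.3 and 71.3 to 44.7 and 45.4. That of Car7, also cytosolic, fell by 20.2 points. These 2 of 4 ranked genes were called lower, 0 were called higher, and pileup ranks gave the same calls. Of the 5 ranked sodium-proton exchangers, which carry protons out of the cytosol or into organelles, 2 were called lower and 1 higher at <0.1% O2. Of the 4 ranked bicarbonate transporters beyond the members, 1 was called lower and 0 higher. Among all coding genes at <0.1% O2, 28.2% were called lower and 10.8% higher by fold rank, and 34.2% and 7.49% by pileup rank. Counts from so few genes are no result about their lists. Proton-sensing receptors had a promoter peak in 1 of 4 (Gpr4) and none that was ranked.

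The V-ATPase, the pump that acidifies lysosomes and endosomes, had a ranked promoter peak for all 16 genes of its list. At 1% O2, 0 were called lower and 3 higher, beside 16.2% and 11.0% of all coding genes. At <0.1% O2, 5 were called lower and 0 higher. The 5 of 16 are near the 28.2% called lower among all coding genes, so they are no result about the pump, and its genes are named by the size of their change alone. Of the genes of its cytosolic sector, Atp6v1h fell by 24.4 points and Atp6v1a fell by 16.4 points at <0.1% O2, and both were also called lower by pileup rank. Of the membrane-sector genes, Atp6v0a1 fell by 17.2 points and Atp6v0a2 fell by 15.5 points, but their pileup ranks changed by 8.96 and −0.99 points with no call. By pileup rank 0 of the 16 were lower and 6 higher at 1% O2, Atp6v0a1 among them with 13.8 points. At <0.1% O2, 2 were lower and 1 higher. Among all coding genes the pileup rank shares were 15.9% lower and 10.5% higher at 1% O2, and 34.2% and 7.49% at <0.1% O2. 

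**Figure D5:**
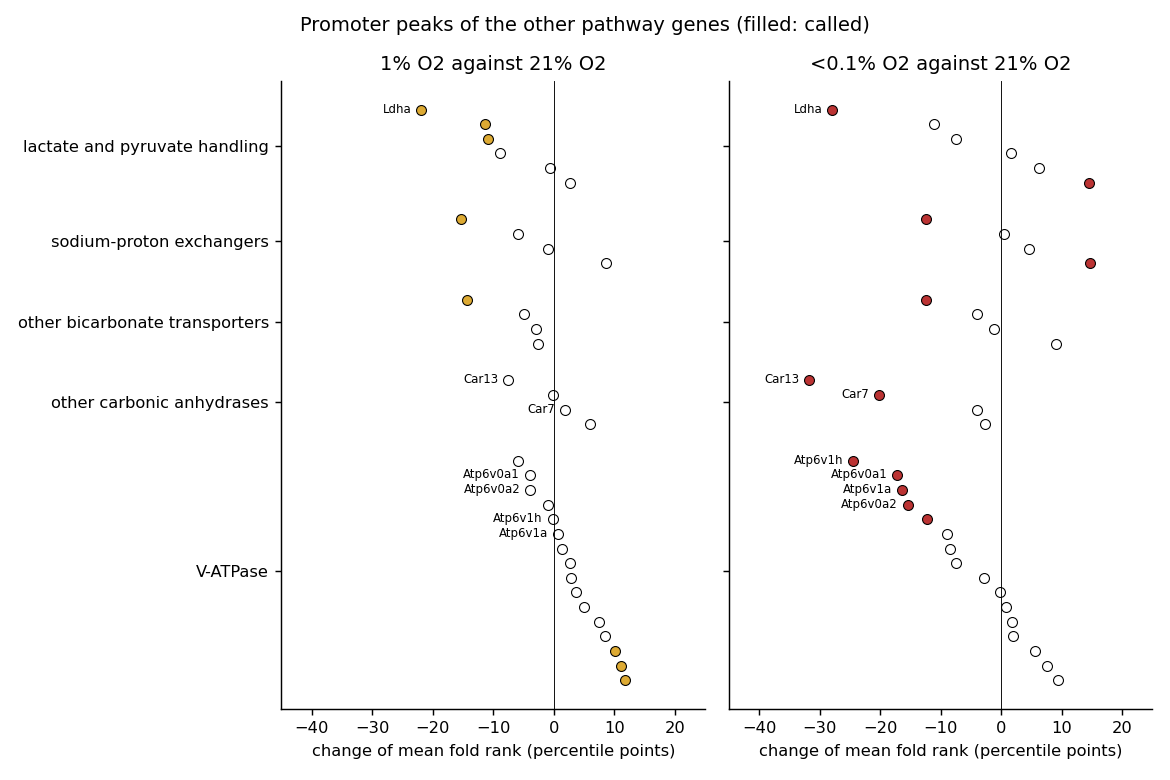
Change of mean fold rank (percentile points) of the strongest promoter peak of the 35 ranked genes of the pathway lists, at 1% O2 (left) and <0.1% O2 (right) against 21% O2. Each point is 1 gene, filled where called, the genes described in the text are named, and 1 sodium-proton exchanger is not drawn. Ldha stands at −21.9 and −27.9 points, and on the right 5 of the 16 V-ATPase genes are called lower, beside 28.2% of all coding genes.

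The promoter peaks most like Slc16a3 +2.4 kb over the 6 fold ranks, by Euclidean distance among 12958 ranked promoter peaks of other genes, were those of Gpr146 (distance 20.1), Gm44949 (20.2) and Cd7 (24.1). Fold ranks at Gpr146 were 35.7 and 34.7 at 21% O2, 61.4 and 82.9 at 1% O2, then 80.2 and 83.2 at <0.1% O2. Cd7 lay on the same chromosome, 90.6 kb from the Slc16a3 peak, with fold ranks of 31.3 and 44.2, 76.0 and 84.6, and 76.6 and 80.2. Gm44949 had fold ranks of 17.3 and 54.3 at 21% O2, 71.4 and 87.2 at 1% O2, then 91.3 and 85.8 at <0.1% O2. All of these peaks ranked higher at both hypoxia levels than in normoxia, as they were chosen to. For Gm44949, however, library 2 of 21% O2 was not low.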

How the data were processed

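The deposited files are ATACseq peak lists, 1 per library. Per the labels and methods, the authors trimmed paired-end reads with Trimmomatic, aligned them to mm10 with Bowtie2 (2.2.5), handled duplicates with Picard, used MACS2 (2.1.1.2) on each library at a q-value of 0.001 and removed blacklisted regions. Replicates were not pooled. The deposited values are a fold ratio over local background, a −log10 p-value and a −log10 q-value. Read counts were not used here, so ranks within a library were compared and the study's test of counts was not repeated.

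Whole summit pileups and backgrounds were recovered for 100% of peaks from the fold and the Poisson −log10 p-value. Calls needed both libraries of a level beyond both of the other and 10 percentile points. The members, gene lists and rules were chosen with earlier results of these data known. The relative pileup and AP-1 search were added after seeing the data. Named pathway genes were the 8 with the largest called changes, of which 1 is not reported here. A peak missing from a library gives no rank there, and intervals for counting error are not given because fragments at a summit overlap. Scripts were tested on simulated data (pandas 2.3.3, numpy 2.4.6 and pysam 0.24.0 under Python 3.11.15, with scipy 1.17.1 for the Poisson tail). Alternatives were other ranked values, call thresholds, list lengths, overlap rules and windows, a GC trend, a replicate block and leaving out each library.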

Additional observations from a re-analysis of the deposited data

Results flagged for a closer look

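The Bsg promoter peak changed with opposite sign under moderate and severe hypoxia. Both libraries at 1% O2 had a higher fold rank than both normoxic libraries, with a mean change of 5.49 points, while both libraries at <0.1% O2 had a lower one, with a mean change of −3.24 points. Neither change reached 10 points, the 2 comparisons share their normoxic libraries, and the difference between them was not tested. The nearest values, 89.1 at <0.1% and 89.3 at 21% O2, were almost equal. By pileup rank the changes were 1.13 and −5.31 points, and the cause was not tested.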

How the results depend on the processing

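Counts below are of the 13 ranked peaks at the 7 genes unless stated, and the cause of a change was not tested. Shares over all ranked peaks are given above only for fold and pileup rank at the main settings. The counts under other settings are therefore no result about the genes. At Slc16a3 +2.4 kb the change at <0.1% O2 stayed called higher under each alternative run for it, between 45.6 and 69.5 points. The lowest value was by pileup rank without library 1 of 21% O2. With a 500-bp promoter window the peak is no promoter peak and has no value. Ranking summit pileup gave 0 lower at 1% O2, 1 lower and 1 higher at <0.1% O2, and 2 lower and 0 higher between the hypoxia levels. Ranking −log10 q gave 2 lower, then 1 and 1, and 2 lower between the levels. Slc4a7 at <0.1% O2 turned from 21.2 to −2.63 points by pileup rank. Ranking within the whole list gave 0 lower and 5 higher at 1% O2, where the lists held 42807 and 41783 peaks, against 33006 and 36188 at 21% O2. A call at 5 points gave 2 lower at 1%, 1 lower at <0.1% and 2 lower between the levels, and one at 20 points 0 lower and 1 higher at 1% O2 and 0 higher between the levels. Subtracting the GC trend gave 0 lower at 1% O2.

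By presence, the stricter q-value gave 1 lost at <0.1% O2. Equal list lengths gave 1 gained at 1% O2, 2 gained at <0.1% O2, and 1 gained (Slc4a4 +96.6 kb) and 1 lost (Slc4a4 +42.3 kb) between the levels, neither of which is among the peaks gained or lost there without that limit. Within 2000 bp of the gene, 1 was gained at 1% O2, 2 gained and 1 lost at <0.1% O2, and 1 lost between the levels. Among the 35 pathway promoters, pileup rank gave 2 lower and 8 higher at 1% O2.

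Leaving out 1 library at a time, lower and higher counts ranged from 1 to 4 and 3 to 5 at 1% O2, from 0 to 1 and 2 to 4 at <0.1% O2, and from 0 to 2 and 1 to 6 between the levels. Without library 1 of 1% O2 the last was 1, and without library 2 it was 6. Gained and lost peaks ranged from 2 to 4 and 0 to 1, 5 to 7 and 2 to 3, and 2 to 4 and 2 to 4. Pathway promoters ranged from 5 to 8 lower and 4 to 5 higher at 1% O2, and 9 to 13 and 2 to 5 at <0.1% O2.

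Same-numbered libraries did not deviate together (correlations of −0.0498, −0.0411 and 0.0296 over 28432 peaks). The labels give them only a shared number, and whether they came from a common batch was not tested. With a replicate block the counts were 1 lower and 4 higher at 1% O2, 0 and 2 at <0.1% O2, and 0 and 3 between the levels. With the GC trend subtracted as well, 0 were lower at 1% O2. The lowest pileups called were 11 at 21% O2 and 13 under hypoxia.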
